A study of Mus musculus with 15 samples.

Results

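The genes described are 10 that set how much iron the liver takes up, stores and releases, chosen by name from the 19464 rows of the deposited liver table, in which all 10 were found on 1 row each. They are the hepcidin genes Hamp and Hamp2, the hepcidin regulators Bmp6, Hfe2 and Tfr2, the uptake genes Tfrc and Trf, the exporter Slc40a1, and the ferritin chains Fth1 and Ftl1. Total RNA of whole liver was sequenced from wildtype and Stab1-/- mice, the latter lacking Clever-1 (stabilin-1, a scavenger receptor of endothelial cells and macrophages) in all cells. Both genotypes share a mixed C57BL/6N and 129SvJ background. Libraries came from the fetal stage E17.5 (wildtype, n = 4; Stab1-/-, n = 3) and from 2-week-old mice (wildtype, n = 4; Stab1-/-, n = 4). The labels do not say whether the libraries of a group came from separate litters, so p-values measure the spread between these libraries. The design asks how the genes differed between the stages and how they differed between the genotypes.

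Iron in blood travels bound to transferrin and enters cells through the transferrin receptor. It is stored inside ferritin shells and leaves cells through ferroportin, the product of Slc40a1. Hepcidin, a peptide hormone made by hepatocytes, binds ferroportin and has it degraded, so a liver with much hepcidin holds iron back from blood. Its gene is switched on by BMP ligands from endothelial cells, acting through SMAD proteins together with hemojuvelin, HFE and transferrin receptor 2, and by interleukin 6 through STAT3. The fetal liver is also a site of red cell formation, and erythroblasts are the main users of iron in the body. That activity leaves the liver around birth.

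Libraries held between 9659 and 10964 reads on genes, in units of 1000 reads, with similar ranges in the 4 groups. Stab1 was counted in every library, with 1244 to 1868 reads in wildtype and 301 to 443 in Stab1-/- fetal livers, and with 579 to 941 and 68 to 119 reads at 2 weeks, so the groups did not overlap at either stage although reads remained in the libraries labelled Stab1-/-. Levels below are RPKM, the reads on a gene divided by the length of its gene model and by the library's total of reads on genes. Differences are log2 fold changes with their standard errors from edgeR's quasi-likelihood test, with p-values adjusted by the Benjamini-Hochberg method over all genes tested and a call at an adjusted p under 0.05. These fits scale libraries by TMM, which centres most genes on no change. Scaling by library totals in its place moved the median difference of all genes between 2 weeks and E17.5 from -0.03 to -0.38 in wildtype and from -0.02 to -0.25 in Stab1-/-, and that of the interaction from 0.01 to 0.12. It moved the share of higher among called genes from 47.9% to 31.5%, from 48.9% to 38.0% and from 44.2% to 71.6%, respectively. For the genotype comparisons it moved this share from 35.0% to 53.7% at 2 weeks and from 53.1% to 40.7% at E17.5. Small stage differences of the iron genes are therefore given under both scalings.

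The mouse carries a pair of neighbouring hepcidin genes, and the bases just before their starts were searched for letters that known regulators can bind. The windows below are the 150 bases before the transcription start in RefSeq (GRCm38.p6), for Hamp chr7:30944030-30944179 and for Hamp2 chr7:30924182-30924331, both read from the minus strand. Capitals mark, from left to right, a GATA core (TTATCT), a BMP response element (GGCGCC, in Hamp only) and a STAT site (TTCNNNGAA), each searched on both strands. They are shown because Hamp and Hamp2 differed in their counts while their windows are nearly alike.
Hamp: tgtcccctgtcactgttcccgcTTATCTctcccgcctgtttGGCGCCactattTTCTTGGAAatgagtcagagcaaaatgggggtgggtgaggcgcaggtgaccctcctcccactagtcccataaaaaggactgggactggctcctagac
Hamp2: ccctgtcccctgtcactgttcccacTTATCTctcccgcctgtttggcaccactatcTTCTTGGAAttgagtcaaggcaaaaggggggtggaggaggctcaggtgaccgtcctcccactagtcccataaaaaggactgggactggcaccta

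The 2 windows were identical at 135 of 153 aligned columns (88.2%). In Hamp the GATA core began 128 bases, the BMP response element 109 bases and the STAT site 97 bases before the start. In Hamp2 the GATA core began 125 bases and the STAT site 94 bases before the start, and the BMP response element was absent from the window, with the substitution G45A counted from 1 at the 5′ end of the Hamp window. Among 32851 windows of the same length before gene starts, 5.65% held the GATA core, 7.01% the BMP response element and 4.09% the STAT site. A match of letters is a description and not a measured binding site. The transcripts of the 2 genes in GENCODE vM21, of 410 and 437 bases, were identical at 88.8% of aligned columns and shared a run of 87 bases, and 60 of the 388 stretches of 50 bases in Hamp2 also occur in Hamp. Reads that fall in such a stretch cannot be placed on one gene, and the deposited counts hold uniquely mapped reads only.

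A second set of short sequences ties 4 of the genes to the iron in the cell itself. Iron regulatory proteins bind a hairpin in the transcript, the iron-responsive element, and when iron is low they hold ferritin and ferroportin transcripts back from translation and protect the transferrin receptor transcript from decay. GENCODE vM21 transcripts (GRCm38) were searched for a C followed by a stem of 5 base pairs around the loop CAGTGN (capitals, the last base not G), G-U pairs allowed. The 7 matches in members are shown because they lie before the coding region in 3 of the genes and after it in Tfrc.
Tfrc, after the coding region, chr16:32631225-32631241 (+): cggaagCAGTGCcttcc
Tfrc, after the coding region, chr16:32631604-32631620 (+): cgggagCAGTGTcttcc
Tfrc, after the coding region, chr16:32631669-32631685 (+): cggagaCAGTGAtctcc
Tfrc, after the coding region, chr16:32631716-32631732 (+): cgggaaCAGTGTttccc
Slc40a1, before the coding region, chr1:45925471-45925487 (-): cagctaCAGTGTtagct
Fth1, before the coding region, chr19:9982738-9982754 (+): cttcaaCAGTGCttgaa
Ftl1, before the coding region, chr7:45459785-45459801 (-): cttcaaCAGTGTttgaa

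Among 22500 transcripts, 1 per gene, 0.0711% held such a match before and 0.444% after the coding region. The libraries measured RNA, so control of translation through these elements is outside what the values below can show.

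The order of the 10 genes by mean RPKM began alike in all groups. Trf, which encodes transferrin, stood first with group means between 12302 and 17658 RPKM, followed by Ftl1 (1424 to 1731) and Fth1 (688 to 750), and the libraries of these neighbours did not overlap in any group. In fetal livers of both genotypes Tfrc came next and lay above Slc40a1 without overlap. At 2 weeks Slc40a1 came next, overlapping Tfr2 in wildtype and standing above Tfrc without overlap in Stab1-/-. Hamp ranked between Tfr2 and Hfe2 in fetal wildtype livers, with overlap on both sides, and between Slc40a1 and Tfr2 in fetal Stab1-/- livers, again with overlap on both sides. At 2 weeks Hamp had fallen below Hamp2 without overlap in both genotypes, and it overlapped Bmp6, the lowest of the 10 by mean in every group.

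**Figure D1:**
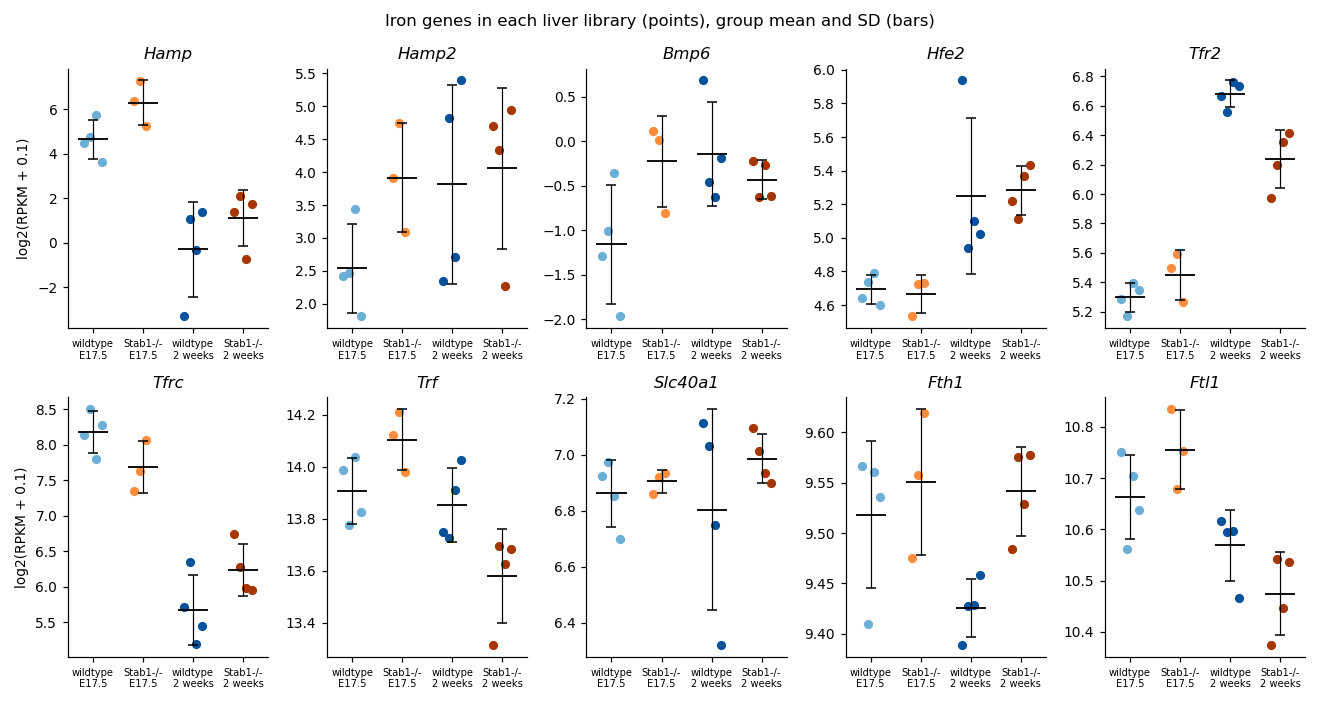
Level of each of the 10 iron genes in each library, as log2(RPKM + 0.1) on the vertical axis (each panel has its own scale), for wildtype and Stab1-/- livers at E17.5 and at 2 weeks. Points are libraries and bars the group mean with its SD (n = 4, 3, 4 and 4); Hamp and Tfrc sit lower at 2 weeks than at E17.5 in every library, and Tfr2 and Hfe2 higher.

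Of the 10 genes, 9 were called between 2 weeks and E17.5 in wildtype (7 higher and 2 lower at 2 weeks) and 4 in Stab1-/- (2 higher and 2 lower). Among all genes tested, 71.9% were called in wildtype (34.4% higher and 37.5% lower) and 72.3% in Stab1-/- (35.4% higher and 36.9% lower). With library totals as scaling 6 of the 10 were called in each genotype, so the counts of members against these shares depended on the scaling. The groups did not overlap in RPKM for 4 of the 10 in wildtype and 6 of the 10 in Stab1-/-, against 68.2% and 71.2% of all genes. Hamp and Tfrc were lower and Tfr2 and Hfe2 higher at 2 weeks in both genotypes. These 4 calls held under every alternative that left the gene's counts as deposited, the leave-one-out fits included.

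Hamp, the main hepcidin gene, fell steeply between the stages. In fetal wildtype livers it had 98, 114, 243 and 53 reads (22.2, 26.6, 54.1 and 12.1 RPKM), and at 2 weeks 0, 8, 3 and 11 reads (0, 1.97, 0.689 and 2.52 RPKM). In Stab1-/- livers it had 354, 656 and 165 reads at E17.5 (82.0, 153 and 38.0 RPKM) and 10, 18, 2 and 13 reads at 2 weeks (2.47, 4.15, 0.505 and 3.26 RPKM). Every fetal library lay above every 2-week library, while libraries of one group differed several-fold among themselves. The fall was 17.2-fold in wildtype (-4.11 ± 0.71, adjusted p = 5.98e-05) and 29.5-fold in Stab1-/- (-4.88 ± 0.62, adjusted p = 2.08e-06). Without Stab1-/- replicate 2 of the fetal group, the library with 656 reads, the latter was -4.21. With 18 reads or fewer in each 2-week library, levels at that age are close to the smallest the depth can show, which is about 3 reads in a library.

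Hamp2, whose product is a hepcidin relative not known to control iron in the way Hamp does, did not follow that fall. In wildtype it had 25, 25, 52 and 16 reads at E17.5 (5.29, 5.45, 10.8 and 3.41 RPKM) and 23, 122, 30 and 196 reads at 2 weeks (5.01, 28.0, 6.43 and 41.9 RPKM). In Stab1-/- it had 69, 122 and 39 reads at E17.5 (14.9, 26.6 and 8.38 RPKM) and 112, 93, 20 and 131 reads at 2 weeks (25.9, 20.0, 4.72 and 30.6 RPKM). The stages overlapped in both genotypes, and at 2 weeks the libraries of each genotype split into low and high values. Hamp2 was called higher at 2 weeks in wildtype (2.05 ± 0.66, adjusted p = 0.0107), a call that was lost without wildtype replicate 4 of the 2-week group (1.39, adjusted p = 0.0683) and with limma on log2(RPKM + 0.1) (1.28, adjusted p = 0.0997). In Stab1-/- the difference was 0.52 ± 0.65 (adjusted p = 0.487).

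The reads on Hamp2 were spread over the gene differently at the 2 stages. The deposited coverage, the percent of the gene model that reads touch, was 25.1% to 56.0% for Hamp2 in the 7 fetal libraries and 79.3% to 90.0% in the 8 libraries of 2 weeks, although the read numbers overlapped. At an equal 122 reads, coverage was 34.9% in a fetal Stab1-/- library and 89.8% in a 2-week wildtype library. For Hamp it was 92.7% to 97.6% in fetal libraries and 0% to 74.9% at 2 weeks, where few reads were available to cover it. Fetal Hamp2 reads were 18.6% to 30.2% of the Hamp reads of the same library. Whether part of the fetal Hamp2 reads came from Hamp transcripts was not tested.

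**Figure D2:**
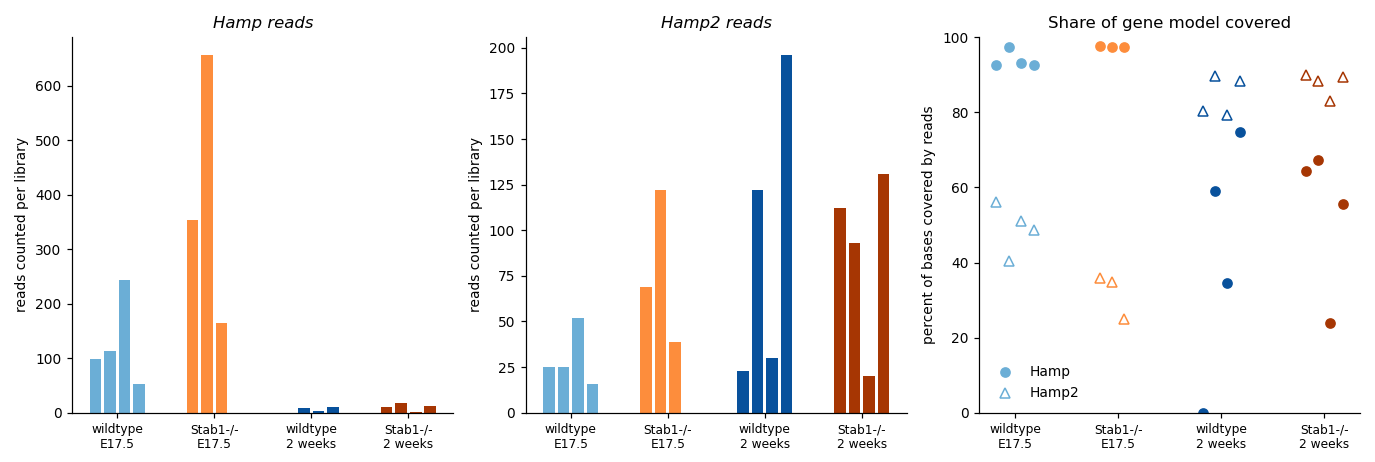
Reads counted on Hamp (left) and Hamp2 (middle) in each library, 1 bar per library, and the percent of each gene model covered by reads (right; filled circles, Hamp; open triangles, Hamp2). Hamp dominates in fetal livers and is nearly absent at 2 weeks, while Hamp2 reads reach like numbers at both stages but cover no more than 56.0% of the gene model in fetal livers and at least 79.3% at 2 weeks.

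The share of Hamp in the sum of both genes' reads therefore turned over. In fetal livers it was 80.2% ± 2.57 in wildtype (SD, n = 4, 76.8% to 82.4%) and 83.0% ± 1.83 in Stab1-/- (SD, n = 3, 80.9% to 84.3%). At 2 weeks it was 5.14% ± 3.79 in wildtype (SD, n = 4, 0% to 9.09%) and 10.6% ± 3.74 in Stab1-/- (SD, n = 4, 8.20% to 16.2%), and the share of 0% rests on 0 of 23 reads, which allows up to 13.0%, counting error only. The stages differed by -75.1 percentage points in wildtype (two-sided exact permutation p = 0.0286, adjusted p = 0.190 over 20 such tests) and by -72.3 points in Stab1-/- (exact permutation p = 0.0571, adjusted p = 0.190). These are the smallest p-values that 4 against 4 and 3 against 4 libraries can give, so the comparisons with 3 libraries cannot pass 0.05. After adjustment over the 20 tests, no comparison of either size could pass 0.05, whatever its values. The adjusted p-values of these and of the other exact permutation tests below therefore cannot decide whether groups differed. Summed, both genes had 69 to 295 reads in fetal and 23 to 207 in 2-week wildtype livers, and 204 to 778 and 22 to 144 in Stab1-/- livers. In a fit on the summed reads, added after the data were seen, the stages differed by -0.27 in wildtype (edgeR adjusted p = 0.716) and by -1.93 in Stab1-/- (edgeR adjusted p = 0.0128).

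Among the regulators of hepcidin, Bmp6, the endothelial BMP ligand that raises hepcidin when liver iron is high, was at the edge of detection. It had 8, 10, 18 and 4 reads in fetal wildtype and 38, 15, 14 and 20 in 2-week wildtype livers, and 25, 23 and 12 reads in fetal and 18, 14, 17 and 13 in 2-week Stab1-/- livers. The 4 groups overlapped, with group means between 0.385 and 0.865 RPKM. Bmp6 was called higher at 2 weeks in wildtype (1.49 ± 0.40, adjusted p = 0.00289), and in Stab1-/- the difference was -0.06 ± 0.41 (adjusted p = 0.910). It shares 224 bases with Txndc5 on the opposite strand, a gene with 34159 reads over the 15 libraries, and whether counting used strand is not given in the sources used here. Set against 16 marker genes of sinusoidal endothelium, its level differed by 0.59 on the log2 scale between the stages in wildtype (two-sided exact permutation p = 0.286, adjusted p = 0.408) and by -0.47 in Stab1-/- (exact permutation p = 0.229, adjusted p = 0.352).

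Hfe2 encodes hemojuvelin, the BMP coreceptor of hepatocytes (symbol Hjv in RefSeq), and it rose at 2 weeks in both genotypes. In wildtype its levels were 24.9, 26.6, 27.5 and 24.2 RPKM at E17.5 and 61.2, 30.6, 34.1 and 32.4 at 2 weeks, and in Stab1-/- 23.0, 26.4 and 26.5 at E17.5 and 37.2, 34.5, 41.2 and 43.1 at 2 weeks. The stages did not overlap in either genotype, and 1 wildtype library stood well above the other 3 of its group. The rise was 0.96 ± 0.17 in wildtype (adjusted p = 8.43e-05) and 0.85 ± 0.19 in Stab1-/- (adjusted p = 0.000611). Without that wildtype library the rise in wildtype was 0.69.

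Tfr2 encodes transferrin receptor 2, through which hepatocytes read how much iron transferrin carries, and it had the clearest rise of the 10. Wildtype levels were 38.9, 35.9, 42.0 and 40.7 RPKM at E17.5 and 102, 94.1, 108 and 106 at 2 weeks. Stab1-/- levels were 45.0, 48.2 and 38.3 RPKM at E17.5 and 62.8, 73.1, 81.8 and 85.2 at 2 weeks. Libraries of one stage lay far from those of the other, by 3.32-fold in wildtype (1.73 ± 0.12, adjusted p = 1.22e-09) and 2.03-fold in Stab1-/- (1.02 ± 0.13, adjusted p = 2.69e-06).

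Beside these 3 members, 25 other genes of the pathway that controls hepcidin were listed, of which 24 passed the filter on low counts. At 2 weeks 18 were higher and 3 lower in wildtype (median difference 0.71, against -0.03 over all genes), and 16 were higher and 3 lower in Stab1-/- (median 0.70, against -0.02). With library totals as scaling, 13 were higher and 4 lower in wildtype. Over all genes tested, the TMM fit called 34.4% higher and 37.5% lower in wildtype, and 35.4% and 36.9% in Stab1-/-. Atoh8, a transcription factor that acts on the hepcidin promoter, rose by 3.69 ± 0.29 in wildtype and 3.31 ± 0.32 in Stab1-/-. Creb3l3, a hepatocyte transcription factor that also acts there, rose by 2.31 ± 0.10 and 1.87 ± 0.11. Tmprss6, the protease that cuts hemojuvelin and so lowers hepcidin, rose from 53.0 ± 2.41 to 157 ± 4.56 RPKM in wildtype (SD, n = 4 each), a difference of 1.91 ± 0.10, and by 1.85 in Stab1-/-. Bmp2, the other endothelial BMP ligand of hepcidin, rose by 1.34 and 0.84, and Hfe by 0.72 and 0.71. In the other direction, Fam132b (erythroferrone, a hormone of erythroblasts that lowers hepcidin) fell in wildtype (-4.10) and in Stab1-/- (-3.49), and so did Socs3, an inhibitor of STAT3 signals (-0.50 and -0.87). Id1, a direct target of SMAD signals like Hamp, fell by 0.43 in wildtype (adjusted p = 0.0436), and its difference in Stab1-/- was -0.29, without a call. Smad7, an inhibitor of SMAD signals and itself a target of them, rose by 1.26 in wildtype, and in Stab1-/- its difference was 0.39.

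Tfrc, the receptor that brings transferrin iron into cells and that erythroblasts carry at high density, fell between the stages in both genotypes. Wildtype levels were 282, 363, 223 and 310 RPKM at E17.5 and 52.6, 81.3, 36.4 and 43.4 at 2 weeks. Stab1-/- levels were 164, 199 and 269 RPKM at E17.5 and 107, 77.7, 63.3 and 61.9 at 2 weeks. No library of one stage reached the other. The fall was 4.34-fold in wildtype (-2.12 ± 0.24, adjusted p = 4.74e-07) and 2.33-fold in Stab1-/- (-1.22 ± 0.25, adjusted p = 0.000283).

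The erythroid genes fell far more than Tfrc. All 20 markers of the erythroid lineage, Gata1, Klf1 and Epor among those listed, were called lower at 2 weeks in both genotypes, with medians of -8.54 in wildtype and -8.80 in Stab1-/-. Over all genes tested, 37.5% were called lower in wildtype and 36.9% in Stab1-/-. At 2 weeks only 8 of the 20 passed the filter when that stage was fitted alone, so most passed through the fetal libraries. Their summed level was 4547 to 5414 RPKM in fetal wildtype and 12.6 to 15.8 in 2-week wildtype livers, and 3386 to 5464 and 9.60 to 12.8 RPKM in Stab1-/- livers. All 8 globin rows found were called lower as well, with Hba-x, Hbb-bh1 and Hbb-y at 0 in every 2-week library. Only 4 of these 8 passed the filter when 2 weeks was fitted alone, so the others passed through the fetal libraries. In bulk tissue, fewer cells of a type and less RNA per cell cannot be told apart.

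**Figure D3:**
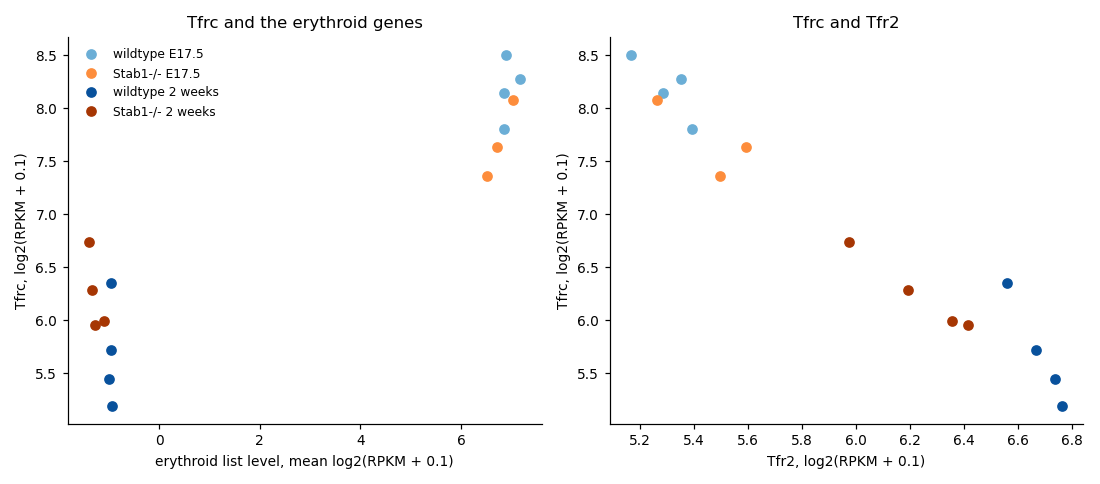
Tfrc level in each of the 15 libraries, as log2(RPKM + 0.1), against the mean level of the 20 erythroid markers (left) and against Tfr2 (right) on the same log2 scale. The stages form separate clusters in both panels; the erythroid list differs by about 8 log2 units between stages and Tfrc by 1.22 to 2.12, and within each stage the libraries with more Tfrc tend to have less Tfr2.

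Trf encodes transferrin, the iron carrier of plasma, and is made by hepatocytes. It took 2.37% to 4.42% of all reads on genes. In wildtype they were 16252, 14008, 16818 and 14504 RPKM at E17.5 and 13775, 13548, 15388 and 16706 at 2 weeks, and in Stab1-/- 17844, 18971 and 16159 at E17.5 and 10170, 13271, 12629 and 13140 at 2 weeks. The stages overlapped in wildtype and were apart in Stab1-/-. The differences were 0.30 ± 0.14 in wildtype (adjusted p = 0.0610) and -0.29 ± 0.15 in Stab1-/- (adjusted p = 0.0902), and with library totals as scaling they were -0.05 and -0.52, the latter being called (edgeR adjusted p = 0.000627). DESeq2 called Trf in wildtype (0.32, DESeq2 adjusted p = 0.0219) and in Stab1-/- (-0.30, DESeq2 adjusted p = 0.0459). With median-of-ratios factors it was called in wildtype (0.33, edgeR adjusted p = 0.0449). With limma on log2(RPKM + 0.1) it was called in Stab1-/- (-0.53, limma adjusted p = 0.00537) and not in wildtype.

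For the exporter and the ferritin chains, the direction between stages in wildtype depended on the scaling. Slc40a1, which encodes ferroportin, had 121, 126, 116 and 104 RPKM in fetal and 139, 131, 107 and 79.7 in 2-week wildtype livers, and 116, 121 and 122 in fetal and 137, 129, 122 and 119 in 2-week Stab1-/- livers. The stages overlapped in both genotypes. It was called higher at 2 weeks in wildtype with TMM (0.31 ± 0.13, adjusted p = 0.0386) and differed by -0.03 with library totals, without a call. That call was also lost without wildtype replicate 1 or 2 of the 2-week group or replicate 3 or 4 of the fetal group (0.22 to 0.31). In Stab1-/- the TMM difference was 0.31 ± 0.14 (adjusted p = 0.0547), and it was called by DESeq2 (0.30, adjusted p = 0.0431), with this genotype fitted alone (edgeR adjusted p = 0.0167) and with the replicate number as a block (0.38, edgeR adjusted p = 0.0121), but not with library totals (0.08, edgeR adjusted p = 0.612). Measured against 16 macrophage markers, its level differed by 0.14 on the log2 scale between the stages in wildtype (two-sided exact permutation p = 0.429, adjusted p = 0.571) and by 0.17 in Stab1-/- (exact permutation p = 0.114, adjusted p = 0.208).

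Fth1, the ferritin heavy chain that oxidises incoming iron, had 758, 680, 755 and 742 RPKM in fetal and 670, 688, 689 and 703 in 2-week wildtype livers. In Stab1-/- it had 712, 753 and 786 RPKM at E17.5 and 716, 763, 739 and 764 at 2 weeks. Its RPKM ranges overlapped in both genotypes, and the mean RPKM of wildtype was lower at 2 weeks (688 ± 13.6 against 734 ± 36.5, SD, n = 4 each), while the TMM fit called it higher (0.26 ± 0.09, adjusted p = 0.0194) and the fit on library totals gave -0.09 without a call. The call was lost without fetal wildtype replicate 2 (0.21, edgeR adjusted p = 0.0686). In Stab1-/- the TMM difference was 0.22 ± 0.10 (adjusted p = 0.0543).

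Ftl1, the light chain that helps the iron core form, had 1723, 1511, 1669 and 1592 RPKM in fetal and 1570, 1546, 1549 and 1414 in 2-week wildtype livers. In Stab1-/- it had 1826, 1640 and 1726 RPKM at E17.5 and 1327, 1492, 1395 and 1484 at 2 weeks. The stages overlapped in wildtype and were apart in Stab1-/-. The differences with TMM were 0.25 ± 0.09 in wildtype (adjusted p = 0.0216) and -0.04 ± 0.10 in Stab1-/- (adjusted p = 0.700), and with library totals -0.10 without a call and -0.28 with one (edgeR adjusted p = 0.00726). The wildtype call was lost without replicate 3 of the 2-week group or replicate 2 or 4 of the fetal group (edgeR adjusted p up to 0.0740). The ratio of Fth1 to Ftl1, which does not depend on scaling between libraries, was -1.15 ± 0.03 in fetal and -1.14 ± 0.09 in 2-week wildtype livers on the log2 scale (SD, n = 4 each), a difference of 0.00 (two-sided exact permutation p = 1.0). In Stab1-/- it was -1.21 ± 0.13 in fetal (SD, n = 3) and -0.93 ± 0.04 in 2-week livers (SD, n = 4), a difference of 0.27 (exact permutation p = 0.0571, adjusted p = 0.190).

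The genes that feed iron into heme moved with the erythroid markers, with 1 exception. Of 10 genes of heme synthesis, 9 were lower and 1 higher at 2 weeks in each genotype (medians -2.27 in wildtype and -1.91 in Stab1-/-), and the counts were the same with library totals as scaling. Over all genes tested, the TMM fit called 37.5% lower and 34.4% higher in wildtype, and 36.9% and 35.4% in Stab1-/-. Alas2, the erythroid form of the first enzyme, fell in wildtype (-3.71) and in Stab1-/- (-3.72). The exception was Alas1, the form of the first enzyme used in liver cells, which rose from 16.5 ± 1.21 to 87.4 ± 37.1 RPKM in wildtype (SD, n = 4 each), a difference of 2.74, and by 2.37 in Stab1-/-.

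Of 23 genes of iron and heme transport, 7 were higher and 8 lower at 2 weeks in wildtype (median 0.05) and 9 higher and 8 lower in Stab1-/- (median 0.09). With library totals as scaling, 7 were higher and 11 lower in wildtype (median -0.29) and 6 higher and 9 lower in Stab1-/- (median -0.13). The TMM shares over all genes tested were 34.4% higher and 37.5% lower in wildtype, and 35.4% and 36.9% in Stab1-/-. Slc25a37, mitoferrin 1, which carries iron into erythroblast mitochondria, fell in wildtype (-5.74) and in Stab1-/- (-5.46). Ltf, the iron-binding lactoferrin of granulocytes, fell as well (-6.15 and -5.47). The plasma scavengers of heme and hemoglobin went the other way, with Hpx (hemopexin) higher by 3.20 and 2.99 and Hp (haptoglobin) by 2.74 and 2.75. Steap4, a metalloreductase, was higher by 2.90 and 2.40, and Cp (ceruloplasmin), the plasma ferroxidase, by 1.67 and 1.16. Steap3, the reductase of erythroblast endosomes, fell (-0.78 and -1.28).

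Of 15 genes that sense, store or recycle iron inside cells, 3 were higher and 6 lower at 2 weeks in wildtype (median -0.15) and 4 higher and 7 lower in Stab1-/- (median 0.00), and with library totals 2 were higher and 12 lower in wildtype. Again, 34.4% of all genes tested were higher and 37.5% lower in wildtype with TMM, and 35.4% and 36.9% in Stab1-/-. Ncoa4, which delivers ferritin for breakdown, fell (-2.25 and -2.05), from 203 ± 13.3 to 33.6 ± 3.68 RPKM in wildtype (SD, n = 4 each). Blvrb, a biliverdin reductase, fell (-1.69 and -1.47), as did Hmox1, the heme oxygenase that frees iron from heme (-1.07 and -1.70). Epas1, the hypoxia factor whose transcript itself carries an iron-responsive element, rose by 2.38 and 2.10, and Iscu, the scaffold of iron-sulfur clusters, by 0.90 and 1.18.

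**Figure D4:**
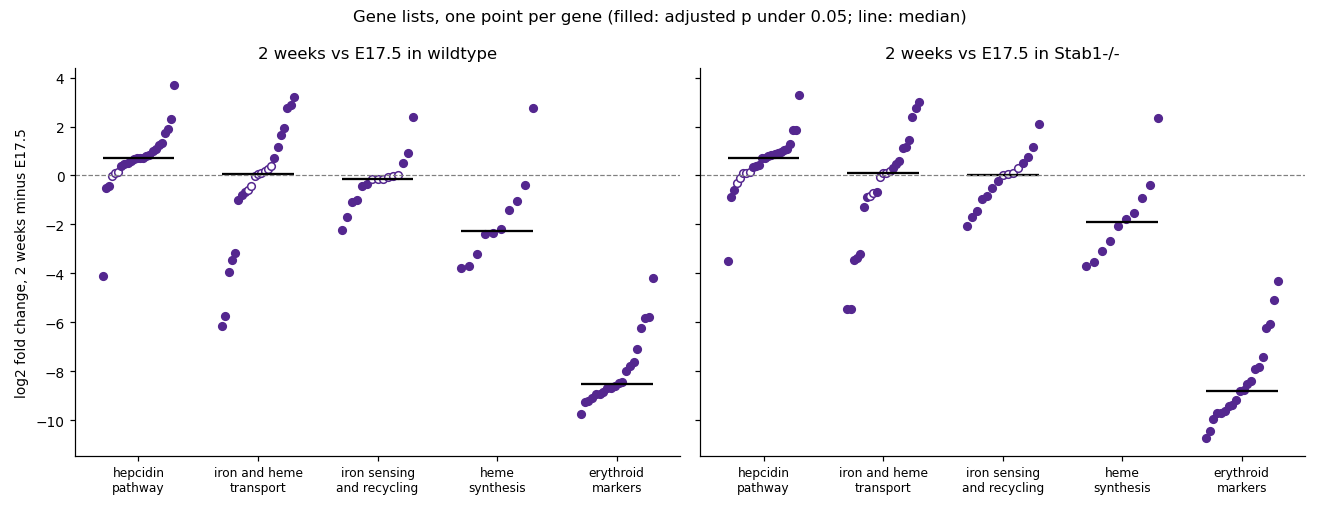
Difference between 2 weeks and E17.5 (log2, TMM) for each gene of 5 lists, in wildtype (left) and Stab1-/- livers (right), 1 point per gene, filled where the adjusted p was under 0.05, with the median as a line. The erythroid markers (medians -8.54 and -8.80) and heme synthesis (-2.27 and -1.91) lie below 0 and the hepcidin pathway (0.71 and 0.70) above it, while the other lists straddle 0.

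Other cell types of the liver moved less between stages than the erythroid markers. Of 16 hepatocyte markers, 14 were higher and 0 lower at 2 weeks in wildtype (median 1.51) and 12 higher and 1 lower in Stab1-/- (median 1.24). The sinusoidal endothelial markers had 12 higher and 2 lower in wildtype and 5 higher and 2 lower in Stab1-/-, and the macrophage markers 5 higher and 4 lower, and 5 higher and 6 lower. With library totals, the endothelial markers had 7 higher and 2 lower in wildtype and 5 and 3 in Stab1-/-, the macrophage markers 4 higher and 8 lower, and 3 and 7, and the hepatocyte markers 13 higher and 1 lower, and 12 and 1. Most hepatocyte markers thus rose between the stages, as Tfr2 and Hfe2 did, while Hamp fell. Of 19 acute-phase genes, 10 were higher and 3 lower in wildtype and 11 higher and 5 lower in Stab1-/-. Beside these lists, 34.4% of all genes tested were called higher and 37.5% lower in wildtype with TMM, and 35.4% and 36.9% in Stab1-/-. The part of cell numbers in any of these differences was not tested.

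Between the genotypes edgeR called none of the 10 genes at either stage, and at 2 weeks Tfr2 was called under several alternatives. At E17.5, 0 of 10 passed in edgeR, against 0.366% of all genes (0.194% higher and 0.172% lower). DESeq2 and limma called 0 as well. In edgeR, 3 of the 10 had an unadjusted p under 0.05 (Hamp, Hamp2 and Bmp6), against 1728 of 13388 genes tested. Hamp was on average 3.31-fold higher in Stab1-/- fetal livers (1.73 ± 0.51, adjusted p = 0.222) and Hamp2 2.78-fold (1.47 ± 0.44, adjusted p = 0.228). The groups overlapped for both, since the lowest Stab1-/- library had 38.0 RPKM of Hamp and the highest wildtype library 54.1. Bmp6 differed by 1.08 ± 0.45 (adjusted p = 0.361). Leaving out 1 library moved the Hamp difference between 1.09 (without Stab1-/- replicate 2) and 2.23 (without wildtype replicate 3). Over the alternatives the adjusted p of Hamp ranged from 0.142 to 0.482 and that of Hamp2 from 0.0726 to 0.498. No RPKM ranges were apart between the fetal genotypes for any of the 10, against 12.2% of all genes. Tfrc differed by -0.42 ± 0.19 (adjusted p = 0.390) and Tfr2 by 0.22 ± 0.10 (adjusted p = 0.402), while the erythroid list had 0 of 20 called and a median of -0.13.

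At 2 weeks 0 of 10 were called by edgeR, against 2.67% of all genes (0.936% higher and 1.74% lower). In edgeR, 2 of the 10 had an unadjusted p under 0.05 (Tfr2 and Trf), against 2975 of 12716 genes tested. DESeq2 called 1, Tfr2, and limma called 0. Tfr2 lay at the threshold, with 94.1 to 108 RPKM in wildtype and 62.8 to 85.2 in Stab1-/- (-0.53 ± 0.13, adjusted p = 0.0506, lower in 4 of 4 libraries than in any wildtype library). Its adjusted p ranged from 0.00586 to 0.132 over the alternatives. Beside it, the hepatocyte markers had a median difference of -0.32 (0 higher and 2 lower of 16) and the endothelial markers one of -0.26 (0 higher and 2 lower of 16). With library totals as scaling, 1 marker of each list was called lower (medians -0.23 and -0.17). The mean level of the erythroid list was -1.38 to -1.09 in Stab1-/- and -0.99 to -0.93 in wildtype livers on the log2(RPKM + 0.1) scale, with 8 of its 20 genes past the filter and 0 called. Their part in the Tfr2 and Trf values was not tested. Trf differed by -0.36 ± 0.16 (adjusted p = 0.199) and was also apart between the genotypes, as was Fth1 in RPKM, with 670 to 703 in wildtype and 716 to 764 in Stab1-/-, although its TMM difference was 0.03. Ranges were thus apart for 3 of 10, against 14.9% of all genes. The ratio of Fth1 to Ftl1 was higher in Stab1-/- by 0.21 on the log2 scale and did not overlap (two-sided exact permutation p = 0.0286, adjusted p = 0.190). Tfrc differed by 0.45 ± 0.22 (adjusted p = 0.244), and by 0.71 with a call (edgeR adjusted p = 0.0483) without wildtype replicate 2, whose 81.3 RPKM was the highest of its group. Hamp (0.92 ± 0.68, adjusted p = 0.436) and Hamp2 (-0.09 ± 0.62, adjusted p = 0.945) overlapped widely.

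**Figure D5:**
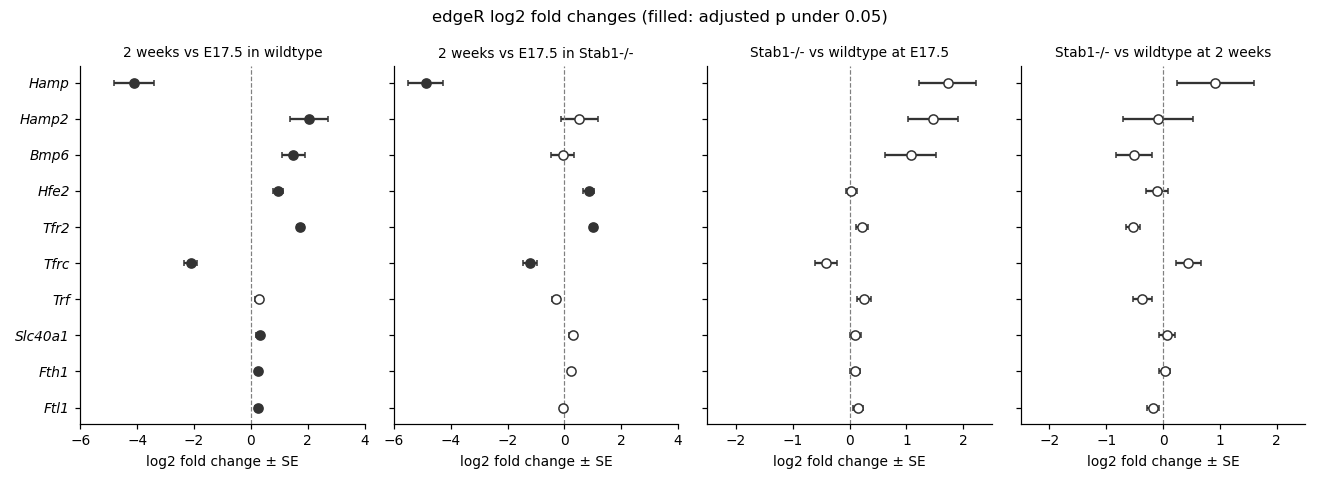
Log2 fold changes with standard errors from edgeR (TMM) for the 10 genes, filled where the adjusted p was under 0.05; the stage panels run from -6 to 4 and the genotype panels from -2.5 to 2.5. Filled points appear in the stage panels alone, for 9 genes in wildtype and 4 in Stab1-/-; with library totals as scaling the stage values of Slc40a1, Fth1, Ftl1 and Trf in wildtype turn slightly negative.

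Whether the genotype difference changed between stages was tested by the interaction term, and 1 of the 10 was called, against 1.81% of all genes (0.799% with a positive and 1.01% with a negative term). It was Tfr2, whose genotype difference moved by -0.71 ± 0.18 (adjusted p = 0.0496) from E17.5 to 2 weeks. That call was lost in 11 of the 15 fits that left out 1 library (adjusted p up to 0.114) and with library totals as scaling (-0.59, adjusted p = 0.0512). With Tfr2, 5 of the 10 had an unadjusted p under 0.05, against 3215 of 13885 genes tested. The other 4 were Tfrc (0.89 ± 0.34, adjusted p = 0.134), Trf (-0.59 ± 0.20, adjusted p = 0.106), Bmp6 (-1.55 ± 0.57, adjusted p = 0.125) and Ftl1 (-0.30 ± 0.14, adjusted p = 0.200). For Hamp the term was -0.78 ± 1.16 (adjusted p = 0.731), so the falls of 17.2-fold and 29.5-fold were not shown to differ. DESeq2 called 3 of the 10, namely Tfr2, Trf and Ftl1.

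Among the listed genes around the 10, few were called between genotypes. Of all genes tested, 0.366% were called at E17.5, 2.67% at 2 weeks and 1.81% in the interaction. Scara5, a receptor that takes up ferritin, was higher in Stab1-/- livers at E17.5 (1.16 ± 0.08 against 0.344 ± 0.13 RPKM, n = 3 and 4; 1.81 ± 0.28, adjusted p = 0.0293) and at 2 weeks (1.06 ± 0.52 against 0.199 ± 0.15 RPKM, SD, n = 4 each; 2.28 ± 0.45, adjusted p = 0.0234). It was the 1 called gene of the 23 for transport at each stage. Its means are low, near the range of Bmp6 (0.385 to 0.865 RPKM), which was at the edge of detection. None of the listed genes of the hepcidin pathway, of iron sensing and recycling, of heme synthesis or of the erythroid list was called at either stage. In the interaction, Smad7 (-0.87 ± 0.20, adjusted p = 0.0437), Stat3 (-0.73 ± 0.17, adjusted p = 0.0453) and Hmox1 (-0.63 ± 0.15, adjusted p = 0.0468) were called, and with library totals as scaling 0 genes of their lists were. Of the marker and acute-phase lists, G6pc (-1.82), Kdr (-0.68), Apcs (1.72) and Orm1 (2.98) were called in the interaction. With library totals, 0 hepatocyte markers, 1 endothelial marker and 2 acute-phase genes were called in it. Smad7 was 2.84 ± 0.11 RPKM in Stab1-/- and 1.96 ± 0.29 in wildtype at E17.5 (SD, n = 3 and 4), and 3.18 ± 0.36 and 3.69 ± 0.58 at 2 weeks (SD, n = 4 each). Orm1, an acute-phase gene, was called higher in Stab1-/- at 2 weeks (2.83 ± 0.47, adjusted p = 0.0102), and among hepatocyte markers G6pc (-0.82) and Pck1 (-0.90) and among endothelial markers Dnase1l3 (-0.64) and Kdr (-0.43) were called lower. With library totals, 1 acute-phase gene was called higher, and 1 hepatocyte and 1 endothelial marker lower.

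Rows were also ranked by how alike they varied among the libraries of a group. Those named as most alike are the highest of many values, and how high unrelated rows would reach was not tested. After the mean of its group was taken from each library, the row most like Hamp over the 15 libraries was Runx1 (Pearson r = 0.902), followed by Hamp2 (0.901), Rpn1 (0.896), Tmem97 (0.884) and Psmd9 (0.880), out of 12043 rows with a mean RPKM of at least 1. Hfe2 stood near the other end for Hamp (-0.702). Wildtype replicate 1 of the 2-week group had both 0 Hamp reads and the highest Hfe2 level of its group (61.2 RPKM). Hamp had 0 to 18 reads in the 2-week libraries, and how far its values rest on these few reads was not tested. For Tfrc the most alike were Azin1 (0.970), Pdik1l (0.952), Plk4 (0.950), Nt5e (0.945) and Ugt2b34 (0.936), and Tfr2 (-0.840) and Trf (-0.788) were near the other end, Tfr2 at rank 12027. These values are descriptions over libraries that share their preparation and depth, and Hamp and Hamp2 also share sequence.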

How the data were processed

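The authors deposited, for each gene and library, the count of uniquely mapped reads, the expression level as RPKM and the coverage as the percent of the gene model touched by reads. Recomputing RPKM from the counts gave the deposited values within 7.68e-12 percent. The aligner, genome build, counting program and use of strand are not given in the sources used here. In units of 1000 reads, libraries held 9659 to 10964 on genes. Libraries of a group differed beyond counting noise (chi-square per degree of freedom of 5.41 or more), so none was counted as a repeat.

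Tests of counts used edgeR 4.0.16 under R 4.3.3 (quasi-likelihood, TMM, filterByExpr with a minimum count of 10 and minimum total of 15, two-sided, Benjamini-Hochberg). Genotypes were fitted within a stage, and stages and the interaction in one fit of all 15 libraries. Single values were compared by exact permutation tests in SciPy 1.17.1. Gene lists were summarised per library by averaging log2(RPKM + 0.1) across members. Alternatives were DESeq2 1.42.0, limma 3.58.1, other scalings, no filter, GC-content offsets, the replicate number as a block, and each library left out. The fits were also run on simulated data with few changed genes, as many raised as lowered. Most genes were called between the real stages, so that simulation does not test the scaling of the stage fits.

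The members and lists were chosen with earlier results of these data known. Named genes are Stab1, the 10 members, up to 2 called genes with the largest rise and fall per list and comparison, list genes needed for a role sentence, and the 5 rows most like Hamp and Tfrc. One gene that this rule names is not reported here. Flvcr1, Flvcr2, Ftmt, Hbb-bt and Hbb matched no row of the table. Promoter windows come from RefSeq on GRCm38.p6, and transcripts, hairpin positions and overlaps of genes from GENCODE vM21 on GRCm38. Replicate numbers come from the labels and were not taken to pair libraries. Between genotypes at 2 weeks, correlations of same-numbered libraries ran from -0.01 to 0.17 (mean 0.09, against -0.03 for other pairs). At E17.5 they ran from -0.18 to -0.03 (mean -0.11, against 0.04). Between stages the means were 0.09 against -0.03 in wildtype and -0.03 against 0.01 in Stab1-/-. Whether libraries of one number shared a batch was not tested.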

Additional observations from a re-analysis of the deposited data

Results flagged for a closer look

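For 3 of 45 sets of group values, 1 library stood apart by Dixon's test, where chance gives about 1 in 20 groups, or 2.25 of 45. Hfe2 was 61.2 RPKM in replicate 1 of the 2-week wildtype group, against 34.1 in the nearest library. Ftl1 was 1414 RPKM in replicate 4 of the same group, against 1546 in the nearest. The Hamp share of Hamp and Hamp2 reads was 16.2% in replicate 2 of the 2-week Stab1-/- group, against 9.09% in the nearest. The genotype difference of Tfr2 changed between the stages by the interaction term (-0.71, edgeR adjusted p = 0.0496).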

How the results depend on the processing

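Falls of Hamp and Tfrc and rises of Tfr2 and Hfe2 between the stages were called in both genotypes under DESeq2, limma, every scaling, the fits without a filter and every fit that left out 1 library. The exception is the fit on summed Hamp and Hamp2 reads, where Hamp lost its call in wildtype (-0.27). Counts limit Hamp at 2 weeks (0 to 18 reads) and Bmp6 at both stages (4 to 38 reads). At E17.5, no alternative called any of the 10 between genotypes.

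The number of the 10 called between genotypes at 2 weeks was 0, and it was 1 (Tfr2) with DESeq2, without the filter, with all 15 libraries in one fit and with GC-content offsets. It ranged from 0 to 2 when 1 library was left out (1 without Stab1-/- replicate 4, 2 without wildtype replicate 2). Between stages, limma called 5 with either pseudocount in wildtype in place of 9, and DESeq2 called 7 in Stab1-/- in place of 4. For the interaction, the count was 3 with DESeq2, 0 without the filter, 0 with library totals, and 0 to 2 when 1 library was left out. Tfrc was called in the interaction (1.16) without wildtype replicate 2 of the 2-week group. The cause was not tested.

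The replicate number was not taken to pair libraries here. With it as a block, 1 of the 10 was called between genotypes at 2 weeks (Tfr2, -0.54), and 1 also with the block and GC-content offsets. Over all genes the block moved the calls from 340 to 1181 at 2 weeks, from 49 to 23 at E17.5 and from 251 to 1088 for the interaction. Directions that turned with the block, none of them called in either fit, were Hamp2 between genotypes at 2 weeks (0.059, and 0.079 with GC-content offsets), Hfe2 between genotypes at E17.5 (-0.012, and -0.0034 with GC-content offsets), Bmp6 between stages in Stab1-/- (0.054) and Slc40a1 in the interaction (0.086). Slc40a1 between stages in Stab1-/- became called with the block (0.38). Without the block, GC-content offsets turned Slc40a1 between genotypes at 2 weeks (-0.11, and -0.10 with the block).

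Over all genes, the other alternatives called 219 to 861 at 2 weeks against 340, up to 235 (DESeq2) at E17.5 against 49, and 185 to 1058 for the interaction against 251. Leaving out 1 library gave 116 to 648, 27 to 46 and 30 to 684.

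Scaling by library totals turned the stage differences in wildtype of Slc40a1 (-0.031), Trf (-0.052), Fth1 (-0.094) and Ftl1 (-0.10), that of Fth1 in Stab1-/- (-0.0098), Hamp2 between genotypes at 2 weeks (0.00096), Hfe2 between genotypes at E17.5 (-0.028), and the interaction of Hfe2 (0.0062), Slc40a1 (0.11) and Fth1 (0.084). With limma, which also uses library totals, the values at pseudocounts of 0.1 and 1 were -0.059 and -0.058 for Slc40a1, -0.053 and -0.053 for Trf, -0.093 and -0.093 for Fth1 and -0.095 and -0.095 for Ftl1 between stages in wildtype, and -0.0091 and -0.0091 for Fth1 in Stab1-/-. Between genotypes they were 0.24 and 0.22 for Hamp2 and 0.034 and 0.032 for Hfe2 at 2 weeks, and -0.029 and -0.028 for Hfe2 at E17.5. In the interaction they were 0.063 and 0.060 for Hfe2, 0.14 and 0.14 for Slc40a1 and 0.084 and 0.084 for Fth1. Summing Hamp with Hamp2 turned Hamp between genotypes at 2 weeks (-0.013). None of these turned values was called.

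Leaving out 1 library turned differences that were never called, over these ranges. Between genotypes at 2 weeks they were -0.42 to 0.58 for Hamp2, -0.21 to 0.17 for Hfe2, -0.056 to 0.16 for Slc40a1 and -0.013 to 0.067 for Fth1, and at E17.5 -0.023 to 0.11 for Hfe2. Between stages in Stab1-/- Bmp6 ran from -0.32 to 0.11. In the interaction, Hfe2 ran from -0.21 to 0.16, Slc40a1 from -0.13 to 0.089 and Fth1 from -0.11 to 0.0068. The Fth1 to Ftl1 ratio ran from -0.10 to 0.017 between genotypes at E17.5 and from -0.043 to 0.031 between stages in wildtype, Slc40a1 against macrophage markers from -0.033 to 0.17 and from -0.022 to 0.064 between genotypes at 2 weeks and E17.5, and Bmp6 against endothelial markers from -0.32 to 0.14 between genotypes at 2 weeks.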
